A study of Mus musculus with 23 samples.

Results

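The genes described here encode the subunits of the mouse proteasome, its assembly chaperones and its activators. They were chosen by symbol, taking every probe set whose platform annotation named exactly 1 gene with a symbol made of Psm, a letter from a to g and a number. Of the 22626 probe sets on the array, 85 met this rule, and they named 48 of the 12393 genes that had such a probe set. Psmc3ip, a factor of meiotic recombination, and Psme3ip1, which binds the activator Psme3, matched only the start of the symbol. Leaving these 2 aside, 46 proteasome genes were measured by 83 probe sets: 8 genes of the alpha ring, 7 of the constitutive beta ring, 3 immunoproteasome subunits, 9 base subunits, 8 lid subunits, 7 assembly chaperones, and 3 activators with 1 inhibitor. A gene with more than 1 probe set (21 of the 46) was represented by its brightest one.

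RNA of 2 muscles, the paraspinal longissimus dorsi and the tongue, was hybridised to 23 Affymetrix arrays. BF mice were flown for 30 days aboard the Bion M1 biosatellite (5 longissimus dorsi and 3 tongue arrays), FC mice were kept for 30 days in a standard animal facility (5 and 2 arrays), and BG mice lived for 30 days on Earth in the habitat used for the flight (5 and 3 arrays). All were male mice, given as C57/BL6 in the sample labels, with no genetic alteration or drug in any group. BF mice also went through launch and landing before dissection, which cannot be told apart from the stay in orbit. Values are log2 signals after robust multi-array averaging (RMA), on which a difference of 1 is a 2-fold change, and a gene was called where limma's adjusted p over all probe sets was under 0.05. The sources used here do not say if a mouse gave 1 muscle or both. The p-values cover only the spread between these samples.

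The proteasome is the protease that degrades proteins tagged with ubiquitin. Its core particle is a barrel of alpha rings, which gate the entrance, around beta rings, which hold the catalytic sites, and it is capped by a regulatory particle. The base of the cap unfolds the substrate with a ring of ATPases, and the lid removes the ubiquitin chain. Interferon exchanges the catalytic beta subunits for those of the immunoproteasome, and in skeletal muscle the proteasome takes apart myofibrillar proteins during atrophy.

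The tissue labels were borne out by marker genes. The mean log2 level of 12 skeletal muscle genes lay between 13.56 and 13.91 in the longissimus dorsi arrays and between 12.03 and 12.81 in the tongue arrays, while 7 oral epithelium genes averaged 4.95 to 5.42 in longissimus dorsi and 12.20 to 12.55 in tongue. In RNA of a whole muscle, fewer cells of a type and less RNA per cell cannot be told apart. BG longissimus dorsi replicate 5 had the widest spread around its group mean (SD 0.356, against 0.149 to 0.254 in the other longissimus dorsi arrays), and its mean over 14 macrophage and leukocyte genes was 8.71, against 6.63 to 7.67 in the other longissimus dorsi arrays.

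In longissimus dorsi of flown mice, 3 subunits of the regulatory particle were higher than in BG mice, and 2 core subunits, 1 immunoproteasome subunit and 3 assembly chaperones were lower. The lid subunits Psmd11 and Psmd7 and the base subunit Psmd1 rose by 0.27 to 0.43 on the log2 scale. The core subunits Psmb3 and Psmb6, the immunoproteasome subunit Psmb10 and the chaperones Psmd10, Psmg1 and Psmg4 were lower in BF by 0.23 to 0.53. Psmg4 was named after its value was seen. These 9 calls are 19.6% of the 46 genes, beside 10.5% of all 12393 genes called in BF vs. BG. The 3 higher genes are 6.52% of the 46 (6.06% of all genes) and the 6 lower genes 13% (4.48% of all genes). None of the 46 passed 2-fold, which 0.428% of all genes did.

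Counted by sign alone, 14 of the 17 base and lid genes had a positive change in BF vs. BG (median 0.13), and 13 of the 15 alpha and constitutive beta genes a negative one (median -0.12). The median change of all 46 was -0.11, and that of all genes -0.04. Over all 12393 genes, 5266 changes were positive and 7127 negative. Against FC mice, 16 of the 17 base and lid genes were again positive (median 0.14), whereas the 15 core genes divided into 8 positive and 7 negative (median 0.00). Over all genes, 4907 changes against FC were positive and 7486 negative. The comparisons with BG and with FC share the BF arrays. In the class means per array, all 5 BF arrays lay between 10.76 and 10.93 for the lid, above the 5 FC arrays (10.52 to 10.71) and 4 of the 5 BG arrays (10.53 to 10.81).

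**Figure D1:**
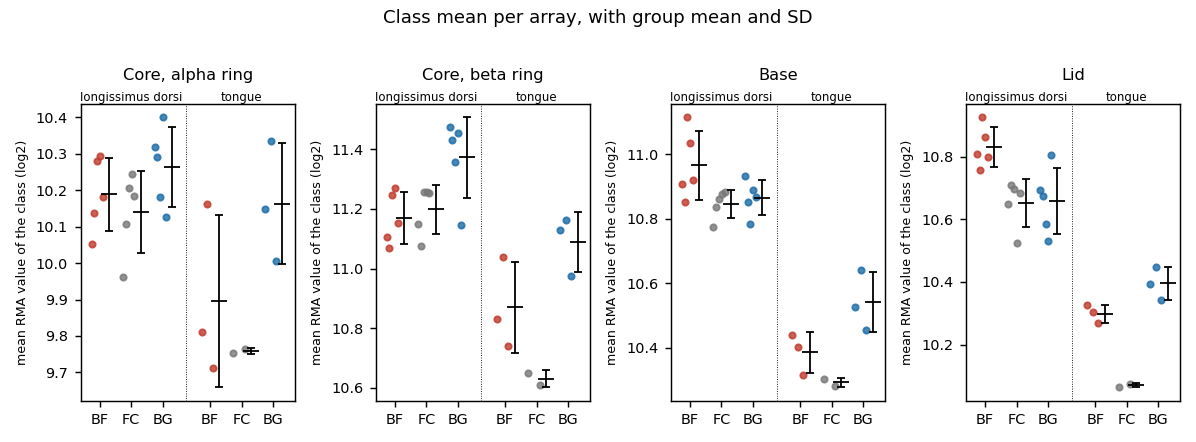
Mean RMA value (log2) of the alpha ring, beta ring, base and lid genes on each array, by muscle and housing, with points for single arrays and a bar for the group mean and SD (n = 5 in each longissimus dorsi group; n = 3, 2 and 3 in BF, FC and BG tongue). The lid means of BF longissimus dorsi (10.76 to 10.93) lie above those of FC (10.52 to 10.71), and both FC tongue arrays are the lowest of their panel in the beta ring, base and lid.

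Psmd11 is a scaffold subunit of the lid. Its brightest probe set read 11.74, 11.81, 11.75, 11.85 and 11.80 in BF, 11.47, 11.56, 11.36, 11.31 and 11.49 in FC, and 11.42, 11.43, 11.26, 11.25 and 11.63 in BG. Every BF array was above every FC and BG array. The change was 0.39 against BG (SE 0.0812, limma adjusted p = 0.00398), a 1.31-fold difference, and 0.35 against FC (limma adjusted p = 0.0153). A second probe set read 11.40 to 11.58 in BF, 10.93 to 11.14 in FC, and 10.85 to 10.95 in BG, with a change of 0.60 against BG (limma adjusted p = 1.88e-05). Of the 6 probe sets of Psmd11, 3 were called higher and none lower in either comparison, and all 6 changes against BG were positive (0.08 to 0.60).

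Psmd7, the lid subunit that pairs with the deubiquitinase Psmd14, had values of 10.28, 10.38, 10.67, 10.36 and 10.45 in BF, 10.01, 10.005, 10.05, 10.15 and 10.16 in FC, and 9.89, 10.06, 9.97, 9.88 and 10.18 in BG. All 5 BF arrays again stood above both ground groups. It rose by 0.43 against BG (SE 0.0868, limma adjusted p = 0.00315) and by 0.35 against FC (limma adjusted p = 0.0216), while its other 2 probe sets were not called (0.17 and -0.03 against BG). Psmd1, the large base subunit that docks ubiquitin receptors, read 10.96, 10.85, 11.17, 10.87 and 10.77 in BF, 10.91, 10.75, 10.79, 10.75 and 10.83 in FC, and 10.66, 10.65, 10.57, 10.59 and 10.77 in BG. The lowest BF and the highest BG array met at the same level, the FC arrays overlapped the BF arrays, and only BF vs. BG was called (0.27, limma adjusted p = 0.0312). In the other direction, the lid subunit Psmd6 and the ATPase Psmc3 had the lowest changes of their classes against BG, -0.15 each, and neither was called.

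**Figure D2:**
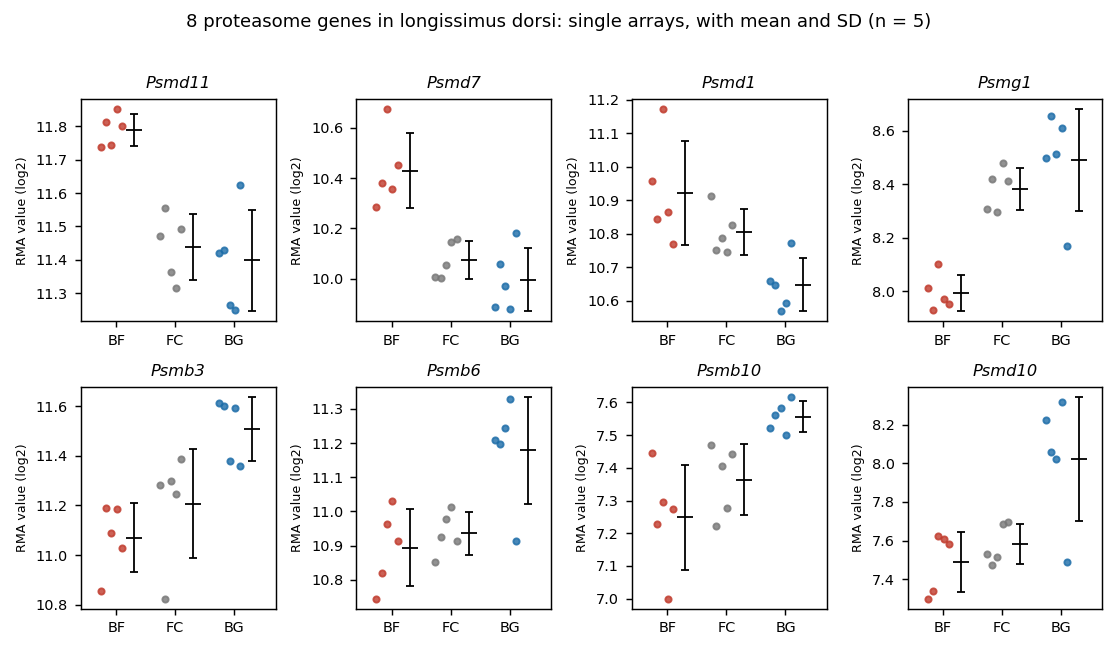
RMA values (log2) of 8 proteasome genes called in BF vs. BG, in longissimus dorsi of BF, FC and BG mice, with points for single arrays and a bar for the mean and SD (n = 5 per group). In Psmd11 and Psmd7 all BF points lie above all FC and BG points, and in Psmg1 all lie below them. The vertical axes differ and do not start at 0.

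Among core subunits, the calls fell in the beta ring. All 7 constitutive beta genes had a negative change in BF vs. BG (-0.44 to -0.07) and 2 were called. Psmb3, a structural beta subunit, read 10.86, 11.19, 11.09, 11.19 and 11.03 in BF, 11.28, 10.82, 11.30, 11.24 and 11.39 in FC, and 11.61, 11.60, 11.38, 11.59 and 11.36 in BG. BF arrays were all below BG arrays. The lowest FC array (10.82) lay below all BF arrays, and the other FC arrays lay above them. Only the highest FC array (11.39) reached the BG range, which began at 11.36. The change against BG was -0.44 (SE 0.121, limma adjusted p = 0.0238) and that of its second probe set -0.54 (limma adjusted p = 0.0110). That second probe set was also lower in FC than in BG (-0.47, limma adjusted p = 0.0278).

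Of the 3 catalytic subunits, Psmb6, which carries the caspase-like site, read 10.74, 10.82, 10.96, 11.03 and 10.91 in BF, 10.85, 10.92, 10.98, 11.01 and 10.91 in FC, and 11.21, 11.20, 11.24, 11.33 and 10.91 in BG. Only BG replicate 5 fell into the range of the flown mice. Its change against BG was -0.28 (limma adjusted p = 0.0499), and the call was lost in 20 of the 23 fits that left out 1 array. Psmb5, the chymotrypsin-like subunit, differed by -0.16 (95% interval -0.31 to -0.01, limma adjusted p = 0.181) and Psmb7, the trypsin-like subunit, by -0.07 (-0.29 to 0.14, limma adjusted p = 0.711). In the alpha ring, no gene was called against BG or FC, and the changes against BG ran from -0.23 (Psma4) to 0.20 (Psma6). Psma8, the testis form of Psma7 and named here after its values were seen, read 3.62 to 4.15 in every array of both muscles.

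The assembly chaperones, which help to build the core ring or the base and leave the finished particle, were all negative in BF vs. BG (7 of 7, median -0.23). Psmg1, a chaperone of alpha ring assembly, read 8.01, 7.93, 8.10, 7.97 and 7.95 in BF, 8.31, 8.42, 8.30, 8.48 and 8.41 in FC, and 8.50, 8.65, 8.51, 8.61 and 8.17 in BG. No BF array reached the lowest ground array. It fell by 0.50 against BG (SE 0.0994, limma adjusted p = 0.00316) and by 0.39 against FC (limma adjusted p = 0.0279). Psmd10, also known as gankyrin, a chaperone of the base, read 7.30, 7.34, 7.62, 7.61 and 7.58 in BF, 7.53, 7.47, 7.52, 7.68 and 7.70 in FC, and 8.23, 8.06, 8.02, 8.32 and 7.49 in BG. FC and BF arrays overlapped, and BG replicate 5 lay among them, away from the other BG arrays. The change of Psmd10 against BG was -0.53 (limma adjusted p = 0.0206), and against FC -0.09 (limma adjusted p = 0.853). Psmd5, a base chaperone, had the smallest drop of the class (-0.10, not called).

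**Figure D3:**
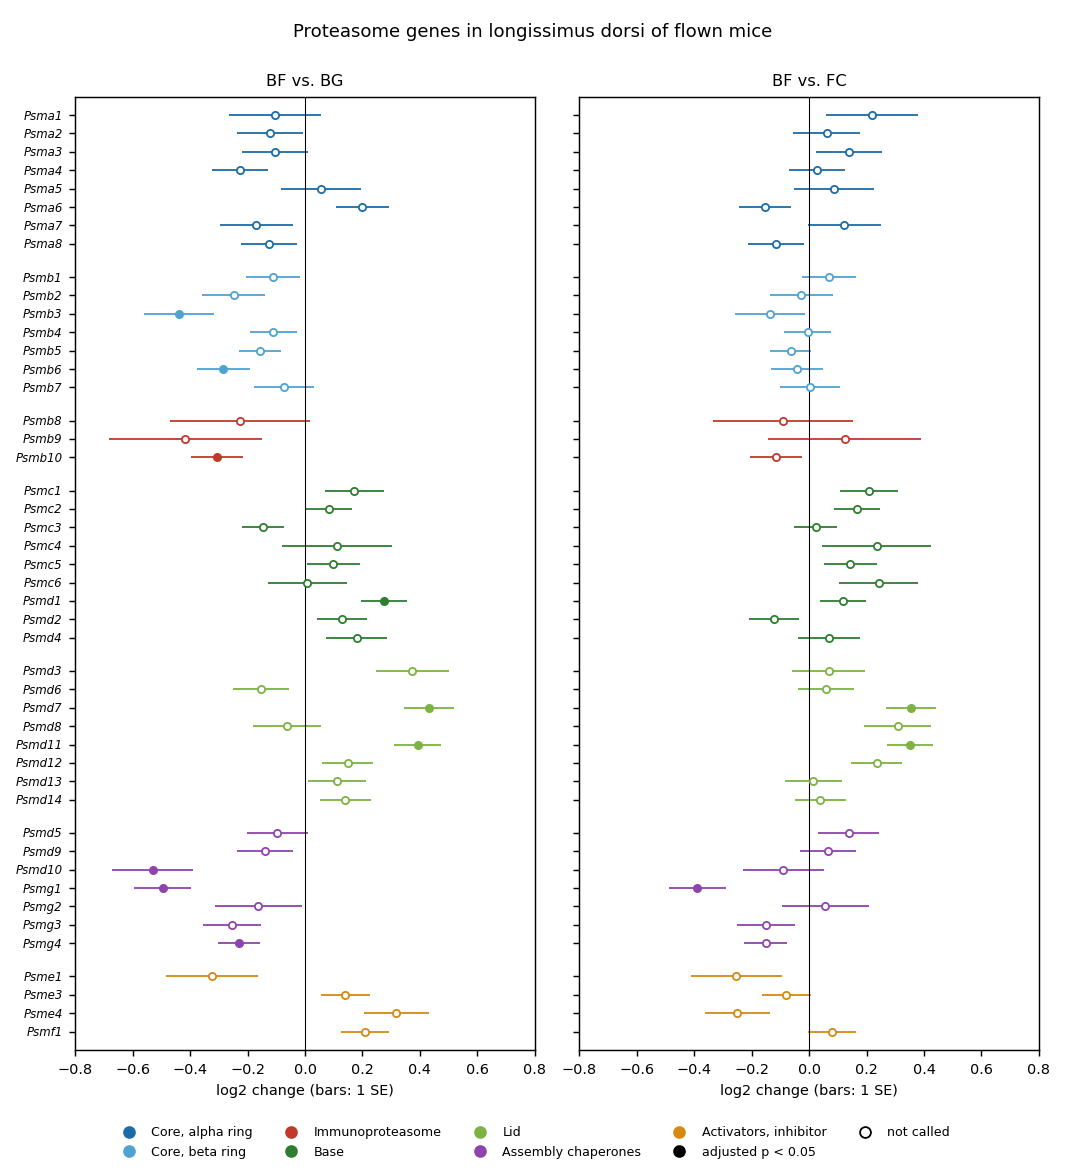
Log2 change of the 46 proteasome genes in longissimus dorsi, BF vs. BG on the left and BF vs. FC on the right, coloured by class, with bars of 1 SE and filled points where the adjusted p was under 0.05. Filled points number 9 on the left, 3 of them to the right of 0, and 3 on the right (Psmd11, Psmd7 and Psmg1).

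Against the animal facility, 3 members were called in longissimus dorsi of flown mice, beside 3.08% of all genes (1.24% higher, 1.84% lower). They were Psmd11 and Psmd7, higher, and Psmg1, lower, which were also called against BG. These 3 genes kept their BF vs. BG call in all 23 fits that left out 1 array. Against FC, Psmd11 kept it in all 23, Psmd7 lost it in 4 and Psmg1 in 6, and Psmd11 alone was left without BF replicate 5 or FC replicate 2. The other 6 calls against BG rested on more of the arrays: 5 of the 9 genes were called without BF replicate 1, 3 or 5 or BG replicate 3 or 4, 4 when BG replicate 2 was left out and 3 when BG replicate 1 was. Without BG replicate 5, the array of high leukocyte genes, 14 genes were called (6 higher, 8 lower), among them all 9. The share of all genes called in that fit is not given here, so the rise cannot be read as particular to proteasome genes. That array also had the widest spread around its group mean (SD 0.356), so leaving it out does not single out leukocyte RNA. The part of leukocyte RNA in these counts was not tested.

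All 3 immunoproteasome subunits had a negative change in BF vs. BG of longissimus dorsi, and 1 was called. Psmb10, which replaces Psmb7, read 7.44, 7.23, 7.30, 7.0 and 7.27 in BF, 7.47, 7.22, 7.40, 7.28 and 7.44 in FC, and 7.52, 7.56, 7.58, 7.50 and 7.62 in BG. BF arrays lay below all BG arrays and overlapped the FC arrays. The change was -0.31 against BG (limma adjusted p = 0.0335) and -0.11 against FC (limma adjusted p = 0.612). Psmb8, which replaces Psmb5, changed by -0.23 against BG (95% interval -0.73 to 0.28, limma adjusted p = 0.611), and Psmb9, which replaces Psmb6, by -0.42 (-0.97 to 0.13, limma adjusted p = 0.352). Of 12 measured genes of MHC class I processing and the interferon response, none was called in any comparison of housings. The 14 macrophage and leukocyte markers had a median change of -0.58 in BF vs. BG with none called, and of -0.44 in FC vs. BG with Lyz2, a lysozyme of myeloid cells, lower (-1.14, limma adjusted p = 0.0195). Their part in the lower immunoproteasome values was not tested.

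In tongue, a single flown mouse stood apart in this class. Psmb8 read 6.56, 6.12 and 7.91 in BF, 6.35 and 6.30 in FC, and 6.74, 6.27 and 6.39 in BG. Psmb9 read 6.42, 6.20 and 8.30 in BF, 6.22 and 6.19 in FC, and 6.48, 6.40 and 6.44 in BG. BF tongue replicate 3 was the highest tongue array for both and for Psmb10 (7.50, against 7.31 and 7.05 in the other BF tongues). The mean of the 12 MHC class I and interferon genes was 9.35 in that array, against 8.06 and 7.98 in the other BF tongues, 7.90 to 8.24 in FC and 7.97 to 8.18 in BG. The macrophage and leukocyte mean was 7.50 in that array, within the range of the tongue arrays (7.25 to 7.61). None of the 3 immunoproteasome subunits was called in tongue.

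**Figure D4:**
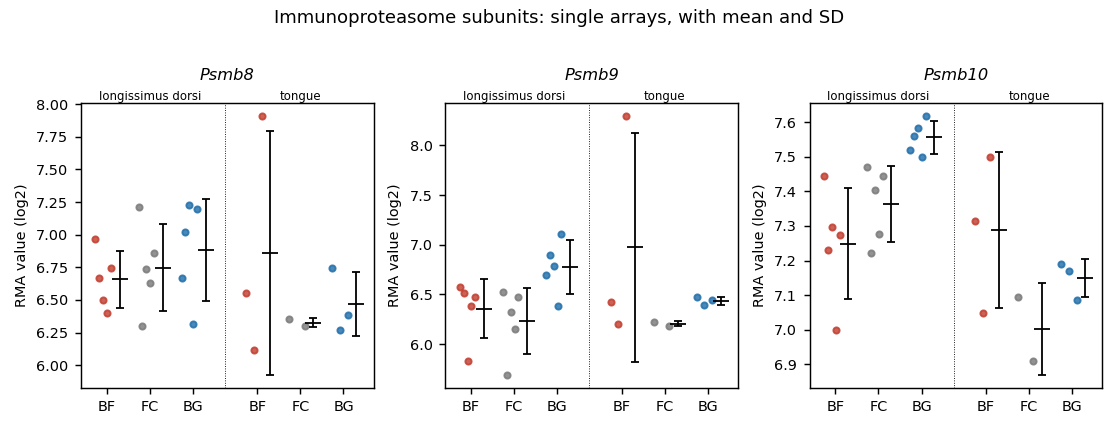
RMA values (log2) of Psmb8, Psmb9 and Psmb10 in longissimus dorsi (left of the dotted line) and tongue (right), by housing, with points for single arrays and a bar for the group mean and SD. BF tongue replicate 3 reads 7.91 in Psmb8 and 8.30 in Psmb9, above all other arrays of both muscles.

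The activators are caps that open the core without ATP, and the inhibitor Psmf1 blocks it. None of these 4 genes was called in BF vs. BG by its brightest probe set. Psme4, the activator linked to histone degradation, read 12.08, 11.89, 12.15, 11.75 and 11.75 in BF, 12.28, 12.47, 12.12, 11.85 and 12.15 in FC, and 11.53, 11.82, 11.40, 11.46 and 11.82 in BG. FC arrays lay above all BG arrays, and BF arrays overlapped both. Psme4 was higher in FC than in BG by 0.57 (SE 0.113, limma adjusted p = 0.00473), with a second of its 3 probe sets also called (0.50, limma adjusted p = 0.0135), and BF vs. BG gave 0.32 (limma adjusted p = 0.0775). Psme1, a subunit of the interferon-inducible activator, changed by -0.32 against BG (95% interval -0.65 to 0.01). Psme2 shares its probe set with Psme2b and was not used.

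The 3 probe sets of Psme3, the nuclear activator, disagreed. In BF vs. BG, one probe set was higher by 0.53 (limma adjusted p = 0.0112), the dimmest was lower (change -0.44, limma adjusted p = 0.0168), and the brightest gave 0.14 (limma adjusted p = 0.332). The first read 7.66, 8.23, 8.09, 8.24 and 8.21 in BF, 8.16, 7.82, 8.26, 8.11 and 8.01 in FC, and 7.24, 7.43, 7.49, 7.59 and 8.03 in BG. The dimmest read 4.52, 4.45, 4.41, 4.40 and 4.50 in BF, 4.84, 4.59, 4.57, 4.43 and 4.67 in FC, and 5.21, 5.00, 4.73, 4.94 and 4.59 in BG. No direction was therefore assigned to the gene. For Psmf1 the brightest probe set was not called (0.21, limma adjusted p = 0.114), whereas another was higher in BF vs. BG by 0.59 (limma adjusted p = 0.00272) and in FC vs. BG by 0.55 (limma adjusted p = 0.00668).

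Between the ground groups, 2 members were called in longissimus dorsi, both higher in FC than in BG, beside 10.3% of all genes (8.07% higher, 2.19% lower). They were Psme4 and the alpha subunit Psma6. Psma6 read 11.84, 11.97, 11.99, 11.81 and 11.87 in FC, against 11.48, 11.47, 11.54, 11.36 and 11.86 in BG, with overlap only through BG replicate 5 (change 0.35, limma adjusted p = 0.0193). The probe set is of the kind that can bind related transcripts, and the other 3 probe sets of Psma6 were not called (0.12 to 0.16). By sign, 14 of the 15 core genes were negative in FC vs. BG (median -0.18), and the 17 base and lid genes were divided into 8 positive and 9 negative. Over all genes, 6101 changes were positive and 6292 negative. Counting a gene by any of its probe sets, 5 were called, beside 12.5% of all genes. Without BG replicate 5, 8 members were called (3 higher, 5 lower), again without the share of all genes in that fit. Only 1 was called without BG replicate 1, BG replicate 4 or FC replicate 2, and 4 without BF tongue replicate 2.

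Several genes that work with the proteasome were also called in flown longissimus dorsi. Of 22 listed partners, 18 were measured: 9 were higher and 2 lower in BF vs. BG (median change 0.33). Of all genes, 6.06% were higher and 4.48% lower. Zfand5, which stimulates the proteasome, rose by 0.71 (limma adjusted p = 8.53e-05), Ubqln2, a shuttle for ubiquitylated proteins, by 0.71 (limma adjusted p = 0.00156), and the shuttle Rad23b by 0.47 (limma adjusted p = 0.00171). The 2 lower partners, named after their values were seen, were the small lid subunit Sem1 (-0.35, limma adjusted p = 0.0272) and the core maturation factor Pomp (-0.29, limma adjusted p = 0.0464). Neither of these 2 was called without BF replicate 1, BF replicate 5 or BG replicate 1, 2 or 4, whereas 7 to 9 partners were called higher whichever longissimus dorsi array was omitted. The direction of Sem1 and Pomp was that of Psmb3 and Psmg1 rather than of the lid subunits Psmd11 and Psmd7.

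Of 33 listed genes of ubiquitin and its conjugation, 23 were measured, 8 were higher and none lower in BF vs. BG (median 0.18). The shares of all genes were 6.06% higher and 4.48% lower. Fbxo32, the muscle ubiquitin ligase atrogin-1, rose by 2.17 (limma adjusted p = 4.31e-07), the ligase Ube4a by 0.99 (limma adjusted p = 0.000138) and the conjugating enzyme Ube2g1 by 0.50 (limma adjusted p = 0.000138). Against FC, 1 partner (Zfand5, 0.40, limma adjusted p = 0.0159) and 2 ubiquitin genes (Fbxo32, 1.85, and Ube4a, 0.76) were higher, beside 1.24% of all genes. In FC vs. BG, 4 partners and 5 ubiquitin genes were higher and none lower, beside 8.07% of all genes higher and 2.19% lower. They were led by the segregase Vcp (0.61, limma adjusted p = 0.00125) and Ube4b (0.74, limma adjusted p = 0.000924). Ubqln2 was also among the 4 partners (0.57, limma adjusted p = 0.00936), and its BF vs. FC change was 0.14 (limma adjusted p = 0.693). That of Rad23b was 0.24 (limma adjusted p = 0.148). The 3 longissimus dorsi comparisons share arrays in pairs and are set side by side only.

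In tongue, no member was called in BF vs. BG, beside 0.831% of all genes. An unadjusted limma p under 0.05 was found for 12 of the 46, beside 1964 of all 12393 genes. By sign, 14 of the 15 core genes and 14 of the 17 base and lid genes were negative (medians -0.23 and -0.12). Over all genes, 6455 changes were positive and 5938 negative. Without BF tongue replicate 2, 3 members were called lower, and without BG tongue replicate 3, 1 was.

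The tongue difference that involved most members lay between the ground groups. In FC vs. BG, 17 of the 46 genes were lower (37%) and none higher, beside 4.18% of all genes lower, 5.72% higher and 9.9% called in either direction. The 17 were 3 alpha genes, 5 beta genes, 2 base and 3 lid subunits and 4 chaperones, with no immunoproteasome subunit or activator among them. The median change of the 46 was -0.31, that of all genes 0.03, and 42 of the 46 changes were negative. Over all 12393 genes, 5671 were negative. FC tongue was measured on 2 arrays.

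Psmd7 had the smallest adjusted p of these genes. It read 8.64 and 8.94 in FC, against 9.39, 9.51 and 9.43 in BG (change -0.65, SE 0.125, limma adjusted p = 0.00309). With values of 9.37, 9.21 and 9.42 in BF it was also the only member called in BF vs. FC in tongue (0.54, limma adjusted p = 0.0228), beside 1.4% of all genes (0.533% higher). The BF and BG tongues overlapped in Psmd7, and both FC tongues lay below them. These values are of the brightest of the 3 probe sets of Psmd7, and only 1 was called in each comparison. Over the 3, the changes ran from -0.65 to 0.20 in FC vs. BG and from -0.04 to 0.54 in BF vs. FC. The BF vs. FC call was lost without BF tongue replicate 1, BF tongue replicate 3 or FC tongue replicate 1, and 3 members were called without BG longissimus dorsi replicate 5 and 2 without FC longissimus dorsi replicate 4.

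Psmb5 read 10.70 and 10.73 in FC, against 11.37, 11.20 and 11.12 in BG (-0.52, limma adjusted p = 0.00435). Psma7, an alpha subunit, read 10.04 and 10.11 in FC, against 10.95, 11.09 and 10.54 in BG (-0.78, limma adjusted p = 0.0111). Neither gene overlapped between the groups, which says little with 2 FC and 3 BG arrays. Psma4 read 10.88 and 10.68 in FC, against 11.36, 11.60 and 11.19 in BG (-0.61, limma adjusted p = 0.0107), and Psmd6 read 10.99 and 10.92 in FC, against 11.46, 11.71 and 11.47 in BG (-0.59, limma adjusted p = 0.0114). The other catalytic subunits, Psmb6 (-0.49, limma adjusted p = 0.0222) and Psmb7 (-0.53, limma adjusted p = 0.0286), were lower as well, so that all 3 constitutive catalytic subunits were called. Probe sets other than the brightest did not all follow their gene: a second probe set of Psmd11 was higher in FC than in BG tongue (0.39, limma adjusted p = 0.0160), while the brightest gave -0.02.

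**Figure D5:**
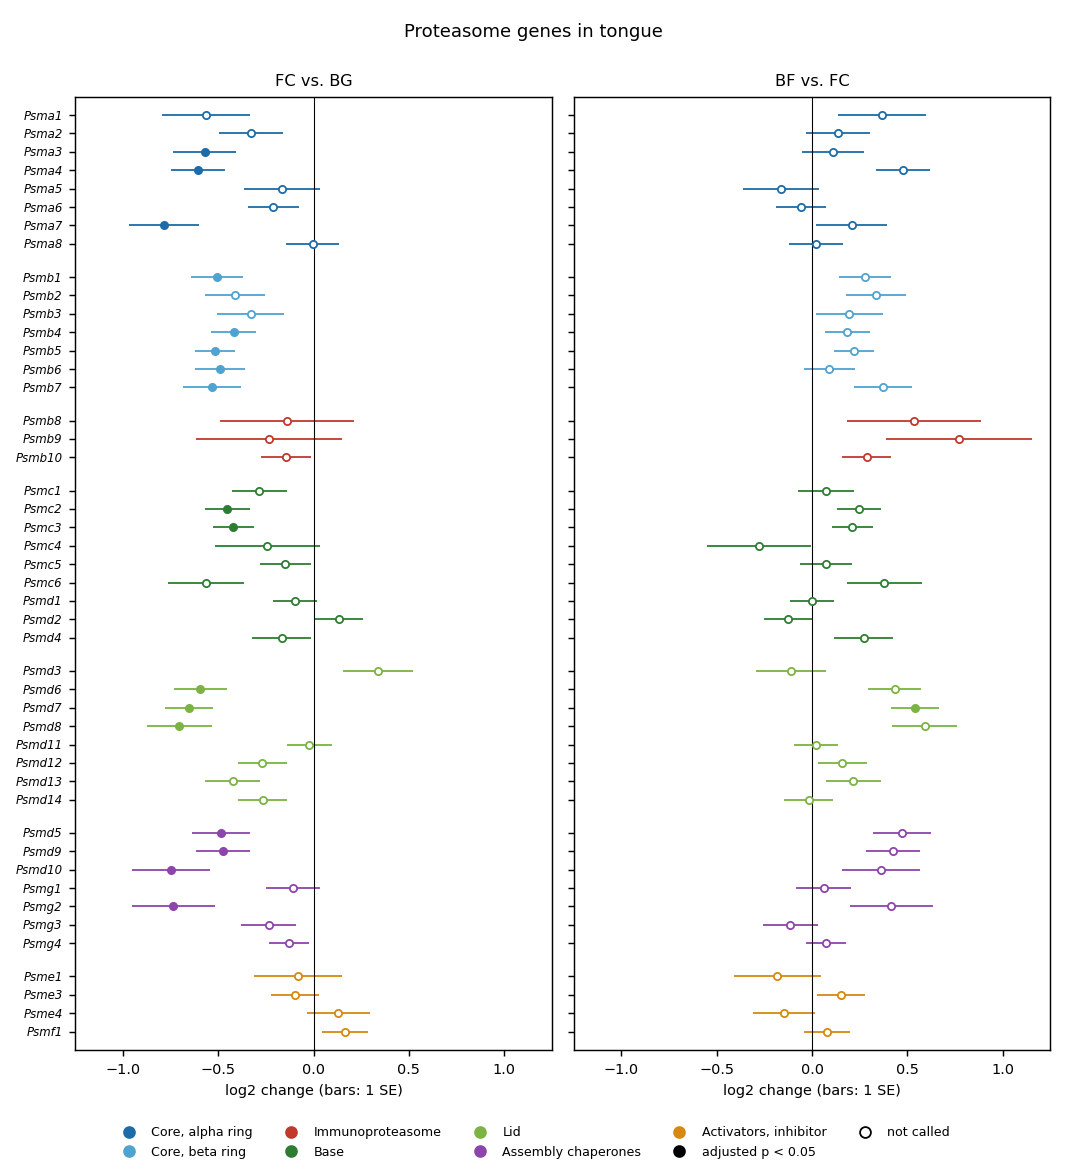
Log2 change of the 46 proteasome genes in tongue, FC vs. BG on the left and BF vs. FC on the right, coloured by class, with bars of 1 SE and filled points where the adjusted p was under 0.05. On the left 17 points are filled, all to the left of 0, and on the right only Psmd7 is filled, to the right of 0.

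The count of 17 depended on which tongues were included. It was 0 when FC replicate 1 was omitted, 2 when FC replicate 2 was, 2 when BG replicate 2 was omitted and 7 when BG replicate 1 was. Without an FC tongue, 1 array is left in that group and is assumed to vary like the other groups, so those 2 counts say little on their own. When the tongue arrays were fitted alone, 11 members were called. Of 12 skeletal muscle markers, 4 were higher in FC than in BG tongue: Myh4 (0.43), Atp2a1 (0.38), Ttn (0.40) and Myh1 (0.46), while the mean over the 12 lay at 12.42 and 12.47 in FC and between 12.03 and 12.79 in BG. Oral epithelium genes averaged 12.49 and 12.55 in FC and 12.35 to 12.39 in BG, with none called. The part of tissue composition in the lower proteasome signal was not tested. In the same comparison, 1 partner was higher (Vcp, 0.51), and of the ubiquitin genes Nedd4 was higher (0.69) and Skp1 (-0.47) and Ube2b (-0.45) lower. Among all genes, 5.72% were higher and 4.18% lower.

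In ground mice, longissimus dorsi had more proteasome signal than tongue. With FC and BG weighted equally, 30 of the 46 genes were higher in longissimus dorsi (65.2%) and none was lower, beside 66.3% of all genes called (41.8% higher and 24.5% lower). The median change was 0.33, and that of all genes 0.15. By brightest probe sets, Psme3 had the largest change (1.11, limma adjusted p = 1.47e-11) and was the only member past 2-fold, beside 15.9% of all genes. Its other 2 probe sets gave 0.54 (limma adjusted p = 6.51e-05) and -0.16 (limma adjusted p = 0.205). The brightest read 8.58 to 9.02 in FC and 8.40 to 8.69 in BG longissimus dorsi, against 7.49 and 7.55 in FC and 7.55 to 7.67 in BG tongue.

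Psme4 (0.99, limma adjusted p = 1.23e-08, with all 3 of its probe sets called higher, by 0.99 to 1.65) and the lid subunits Psmd8 (0.98, limma adjusted p = 2.61e-08), Psmd6 (0.96, limma adjusted p = 1.46e-09) and Psmd7 (0.92, limma adjusted p = 4.83e-10) followed. For Psmd7, 2 of its 3 probe sets were called higher, and the lowest change was -0.16. All 7 constitutive beta genes were higher in longissimus dorsi, with Psmb7 first (0.83, limma adjusted p = 5.72e-08). Psmb10 was higher (0.38, limma adjusted p = 0.000235), and Psmb8 and Psmb9 were not called. Skeletal muscle markers moved in the same direction, 11 of 12 higher in longissimus dorsi with a median change of 0.42, and 7 of 7 oral epithelium markers were lower. The part of tissue composition in the difference between the muscles was not tested.

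Whether flight acted differently in the muscles was tested as the BF vs. BG change in longissimus dorsi minus that in tongue. No member was called in limma, beside 0.129% of all genes. An unadjusted limma p under 0.05 was found for 10 of the 46, beside 1464 of all 12393 genes. All 17 base and lid genes had a positive difference (median 0.26), as had 11 of the 15 core genes (median 0.12), and the 3 immunoproteasome subunits were negative. Over all genes, 5605 differences were positive and 6788 negative. Psmd7 had a difference of 0.55 (limma adjusted p = 0.121) and Psma6 of 0.47 (limma adjusted p = 0.213). Without BG longissimus dorsi replicate 5, these 2 genes were called. Over all their probe sets, the difference ran from -0.20 to 0.55 for Psmd7 and from 0.04 to 0.64 for Psma6. Among genes that work with the proteasome, Fbxo32 (1.76, limma adjusted p = 0.0195) and the thioredoxin Txnl1, which associates with the regulatory particle (0.69, limma adjusted p = 0.0459), had a called difference. For Txnl1 the change was 0.32 in longissimus dorsi (limma adjusted p = 0.0230) and -0.37 in tongue, which was not called (limma adjusted p = 0.114).

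Promoter sequence was read from RefSeq (GRCm38.p6) for 38 of the 46 genes, as 250 bases before and 50 after the start given in the promoter table. For some genes, Psmb6 among them, that start lies inside the annotated gene span. Both strands were searched for TGACNNNGC, the core of the antioxidant response element, which the proteasome regulators Nfe2l1 and Nfe2l2 are known to bind. It was present in 6 of the 38 genes (15.8%), beside 12.4% of 32851 mouse promoters: Psmb5, Psmb6, Psmc6, Psmd9, Psmd12 and Psme4. The 38 genes had 40 promoters. A gene counted if any of its promoters matched, while the mouse promoters were counted singly. CCAAT was found in 13 (34.2%, beside 37.4%). The core of the interferon-stimulated response element, GAAA followed by any 2 bases and GAAA, was found in 5 (13.2%, beside 3.44%), Psmb3, Psmd4, Psmd9, Psme1 and Psmg4. A match here is a description of these letters and not a bound site.

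The 250 bases before the start are shown for the regulatory genes Psmd11 (chr11:80428365-80428614) and Psmd1 (chr1:86064369-86064618), called higher in flown longissimus dorsi, and for the core gene Psmb3 (chr11:97703184-97703433), called lower. All 3 are on the plus strand, and the searched motifs stand in capitals. Psmd11 and Psmd1 hold none of the 3 motifs, and Psmb3 holds the interferon element core in reverse complement and 2 CCAAT boxes.
Psmd11: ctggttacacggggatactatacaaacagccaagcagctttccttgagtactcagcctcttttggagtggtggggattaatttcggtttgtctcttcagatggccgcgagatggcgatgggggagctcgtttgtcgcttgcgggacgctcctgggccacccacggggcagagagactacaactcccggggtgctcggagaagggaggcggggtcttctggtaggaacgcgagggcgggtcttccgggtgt
Psmd1: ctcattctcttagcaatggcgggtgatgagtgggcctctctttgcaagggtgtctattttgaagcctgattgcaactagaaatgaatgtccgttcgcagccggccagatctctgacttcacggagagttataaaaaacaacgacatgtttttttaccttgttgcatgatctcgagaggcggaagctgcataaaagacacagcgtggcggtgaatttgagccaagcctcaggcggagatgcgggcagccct
Psmb3: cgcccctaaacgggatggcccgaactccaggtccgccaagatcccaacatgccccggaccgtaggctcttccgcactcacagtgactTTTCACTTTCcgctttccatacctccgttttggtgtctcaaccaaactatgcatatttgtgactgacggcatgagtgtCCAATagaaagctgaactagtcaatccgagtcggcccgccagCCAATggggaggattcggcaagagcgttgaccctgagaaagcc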

How the data were processed

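Total RNA of longissimus dorsi and tongue was hybridised to 3′ expression arrays, and the authors normalised them by RMA in Partek, per the labels. The deposited values are log2 signals for 22626 probe sets on 23 arrays, used as they are, with no filter and no pseudocount, and their number of arrays, not a read depth, limits the precision. Genes come from the platform annotation, and 20380 probe sets named 1 gene. A linear model with a mean for each of the 6 groups was fitted to all probe sets in limma 3.58.1 (R 4.3.3), with empirical Bayes moderation (17 residual and 5.12 prior degrees of freedom) and Benjamini-Hochberg adjustment over all probe sets. The fit was tested only on simulated independent arrays with planted changes of 2-fold or more. That test does not cover smaller changes, such as those of the proteasome genes between housings. The members, classes and lists were chosen with earlier results of these data known. Named genes were the catalytic and immunoproteasome subunits, activators and inhibitor, the 5 genes of smallest adjusted p per comparison, the extremes of each class in BF vs. BG, genes past 2-fold or with opposite probe set calls, and the 3 leading genes of each other list. Alternatives were each muscle alone, other moderation, brighter probe sets only, quantile normalisation within muscle, median centring, array weights, replicate blocks, other choices of probe set, and leaving out each array.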

Additional observations from a re-analysis of the deposited data

Results flagged for a closer look

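Among 69 groups of 5 arrays tested for a single array far from its group, 2 were flagged, and chance flags about 1 in 20 groups. Psmb3 read 10.82 in FC longissimus dorsi replicate 2, below the other 4 FC arrays (11.24 to 11.39). Psmb9 read 5.83 in BF longissimus dorsi replicate 3, below the other 4 BF arrays (6.39 to 6.57).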

How the results depend on the processing

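Among the genes named by rule, no called change turned its direction under any alternative, and the other called genes were not checked for this. Single probe sets other than the brightest could go the other way, as for Psmd7 in BF vs. BG of longissimus dorsi (lowest change -0.03). In BF vs. BG of longissimus dorsi, 9 members were called, 14 with array weights, and 3 to 14 when 1 array was left out. In BF vs. FC the 3 calls ranged from 1 to 3. In FC vs. BG of longissimus dorsi, the 2 calls became 5 with brighter probe sets only, 9 with array weights, 5 when any probe set of a gene counted and 8 when each longissimus dorsi group lost its array of widest spread, an alternative chosen after seeing the data, with a range of 1 to 8 when 1 array was left out. In tongue BF vs. BG, the count of 0 became 6 with array weights (0 to 3 when 1 array was left out). In tongue BF vs. FC, the 1 call became 0 with each muscle fitted alone, 4 with quantile normalisation within muscle, 6 with array weights and 2 with those arrays left out (0 to 3). In tongue FC vs. BG, the 17 calls became 11 with each muscle alone and 0 to 19 when 1 array was left out. For the difference between muscles, 0 became 4 with array weights and 2 with those arrays left out (0 to 2). The causes were not tested. Counts under the alternatives, here and above, stand without the share of all genes called in the same fit. They do not show if a shift was particular to proteasome genes. The 30 calls between muscles stayed within 26 to 34.

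The replicate numbers were not taken as pairs, because not every same-numbered pair of arrays correlated over 0.1 (lowest -0.218 in longissimus dorsi). That rule cannot show that same-numbered arrays are unlinked, and within each muscle they correlated more on average than the others. In longissimus dorsi, same-numbered arrays correlated by 0.136 on average (8 of 15 over 0.1) and differently numbered ones by -0.0316 (16 of 60). In tongue these means were 0.111 (3 of 7) and -0.0543 (1 of 14). With the number as a block within muscle, 5 members were called in FC vs. BG of longissimus dorsi, 1 in tongue BF vs. BG and 2 in tongue BF vs. FC. In BF vs. BG of longissimus dorsi 9 were called, 8 of them shared with the unblocked fit. The block could not be fitted for the comparison of muscles. Between muscles of one housing, same-numbered arrays correlated by 0.0087 on average (2 of 8 over 0.1). Differently numbered ones correlated by -0.00218 (7 of 32). A further fit treated arrays of one housing and number as one animal, and estimated a correlation of -0.0231 between them. These values cannot show if a mouse gave both muscles.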
